A study of Mus musculus with 8 samples.

Results

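Departure from additivity of CHIR99021 and valproic acid (VPA) was examined in mouse small intestinal organoids as the interaction of the 2 compounds, that is, the response to VPA in the presence of CHIR99021 minus the response to VPA in its absence. All 8 arrays of the series enter this value, and all 8 were used. Organoids were cultured for 6 days with 3 µM CHIR99021 plus 1 mM VPA, with 3 µM CHIR99021, with 1 mM VPA, or under control conditions. Each condition was measured once in each of 2 independently established wild-type lines, here lines 1 and 2, so that 4 groups hold 2 arrays each. On every array the Cy5 dye held the sample and the Cy3 dye control RNA from that line. A control array therefore sets control RNA against control RNA. Values are log2 ratios of Cy5 over Cy3. The interaction was computed within each line and averaged, and a value of 0 means that the fold changes of the single compounds multiply in the combination. A negative value means that the combination lay below that product, and a positive value that it lay above. The ± beside an interaction is its standard error from limma, over n = 2 lines.

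CHIR99021 inhibits the kinase GSK3, which lets beta-catenin accumulate and act with TCF/LEF factors on Wnt target genes. In the small intestine Wnt signalling maintains crypt stem cells and the maturation of Paneth cells, the granule-bearing cells that secrete lysozyme and alpha-defensins. VPA inhibits histone deacetylases and is itself a fatty acid with a short branched chain. Cells break fatty acids down in mitochondria and peroxisomes, and many genes of that pathway are targets of PPAR nuclear receptors. The organoids are epithelial cultures. Epcam, Cdh1, Vil1, Lgr5, Lyz1, Clca1, Chga, Dclk1 and Alpi were well above background on all 8 arrays, and of the markers of other tissues Col1a1 was on 4, Pdgfra and Ptprc on 3 and Pecam1 on 0. In bulk RNA of this kind, fewer cells of a type and less RNA per cell cannot be told apart.

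Of 19255 genes tested, 0 departed from additivity at an adjusted p of 0.05 (limma with organoid line as a block and Benjamini-Hochberg adjustment), which is 0% of the genes, and the smallest adjusted p was 0.334. At an unadjusted p under 0.05 there were 815 genes (4.23%), of which 430 were positive (2.23%) and 385 negative (2%). The genes below are therefore given as measured values and not as calls. Across genes the interaction had a median of 0.00 and a median standard error of 0.15, with an SD of 0.32 in line 1 and 0.26 in line 2. The 2 lines correlated across genes with r = 0.24 (0.12 by rank), where genes are not independent replicates.

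A count of large values that the lines share differed between the directions. There were 58 genes (0.301%) with an interaction of at least 2-fold and of one sign in both lines, 48 of them negative (0.249%) and 10 positive (0.0519%), while 5 genes passed 2-fold with opposite signs. Probes with no symbol counted as genes of their own, and whether they repeat named genes was not tested. The negative entries also include close copies of one family, such as alpha-defensin, angiogenin and Cyp2b genes, so the entries may not be independent. Of the 48 negative entries 39 had a symbol other than a clone name, as did all 10 positive ones. Well above background on all 8 arrays were 41 of the negative and 9 of the positive entries. With the software's own Agilent log ratios in place of the corrected ones, the counts were 150 negative and 92 positive. The Cy3 channel held control RNA on every array, so its interaction measures labelling and array error but not the spread between separate cultures, which Cy5 also carries. In Cy3 alone 4 genes (0.0208%) passed, and in Cy5 alone 82 genes (0.426%). The SD of the interaction was 0.37 in Cy5 and 0.17 in Cy3 in line 1, and 0.32 in Cy5 and 0.17 in Cy3 in line 2. The histograms of both channels show the wider Cy5 distribution, with its longer tail on the negative side.

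**Figure D1:**
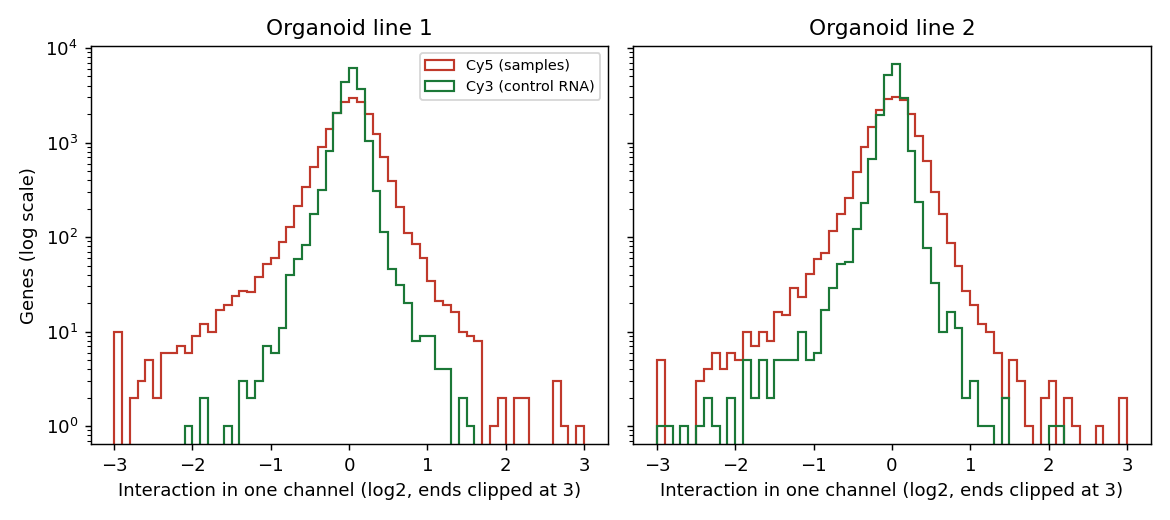
Histograms of the interaction of 19255 genes computed from the Cy5 channel (samples) and from the Cy3 channel (control RNA on every array), by organoid line; the x axis is log2 and the y axis is the number of genes on a log scale. The Cy5 SDs of 0.37 and 0.32 exceed the Cy3 SDs of 0.17 in both lines.

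**Figure D2:**
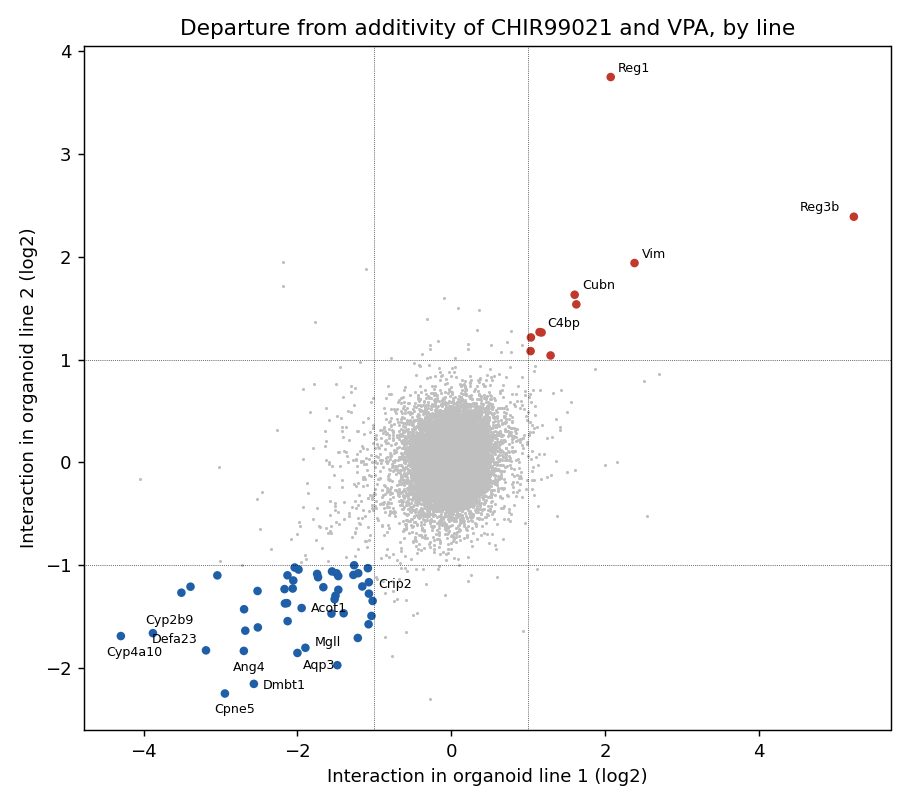
Interaction of each gene in line 1 (x axis) and line 2 (y axis), log2; grey points are all genes tested, and coloured points are the 58 genes past 2-fold (dotted lines) with one sign in both lines. The lower left corner holds 48 genes and the upper right corner 10.

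The 15 genes of smallest p in each direction were taken from those of one sign in both lines and well above background on all 8 arrays. Their adjusted p ran from 0.334 to 0.829. The same sign was found in the Cy5 channel alone in both lines for all 30, and also on a linear scale of fold over control, where additivity means that fold increments add. The genes were chosen by their sign in the ratio, which holds Cy5. Their Cy3 interactions ran from -0.40 to 0.31 as means of the lines, with -0.72 for Ifi27l2a in line 1. The Cy5 sign thus follows from the choice and is no separate support. Of their promoters, 4, shown because CHIR99021 acts through TCF/LEF factors, held the TCF/LEF motif CTTTGAT on either strand in the 250 bases before the RefSeq start. That is 4 of the 27 genes with a promoter in the table (14.8%), against 1053 of 32851 promoters (3.21%). The first share counts genes and the second promoters, of which a gene may have several, so the units differ. The 30 genes were chosen for their values, so the shares are a description. Sequences are from RefSeq (GRCm38.p6), on the strand of the gene, with the match in capitals, and ATCAAAG is CTTTGAT on the other strand. They are the acyl-CoA thioesterase gene Acot1 (chr12:84009252-84009501, plus strand), the alpha-defensin genes Defa23 (chr8:21054790-21055039, plus strand) and Defa22 (chr8:21162027-21162276, plus strand), each with 2 matches, and the cubilin gene Cubn (chr2:13491877-13492126, minus strand). Defa23 and Defa22 are close copies that share the bases around a match, so they are not separate observations.
Acot1: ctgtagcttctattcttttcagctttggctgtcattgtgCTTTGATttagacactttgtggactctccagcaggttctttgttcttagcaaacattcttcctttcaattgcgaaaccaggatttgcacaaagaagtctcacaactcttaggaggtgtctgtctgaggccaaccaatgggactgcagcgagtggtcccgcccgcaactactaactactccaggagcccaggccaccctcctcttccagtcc
Defa23: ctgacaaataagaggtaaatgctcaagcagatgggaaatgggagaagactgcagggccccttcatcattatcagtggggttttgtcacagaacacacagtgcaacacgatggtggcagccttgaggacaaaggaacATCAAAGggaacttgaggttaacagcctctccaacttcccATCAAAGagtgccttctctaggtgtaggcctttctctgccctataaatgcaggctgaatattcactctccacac
Defa22: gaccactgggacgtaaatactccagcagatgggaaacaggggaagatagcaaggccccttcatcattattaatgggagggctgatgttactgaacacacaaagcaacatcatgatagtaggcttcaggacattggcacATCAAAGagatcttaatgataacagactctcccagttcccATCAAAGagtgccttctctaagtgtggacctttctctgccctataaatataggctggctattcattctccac
Cubn: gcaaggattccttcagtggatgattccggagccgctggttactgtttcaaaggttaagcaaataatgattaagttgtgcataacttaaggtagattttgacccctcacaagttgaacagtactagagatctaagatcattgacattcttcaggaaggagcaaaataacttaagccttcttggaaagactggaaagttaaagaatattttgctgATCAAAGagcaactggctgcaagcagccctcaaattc
The nuclear receptor half-site AGGTCA was found in promoters of 3 of the same 27 genes (11.1%), Capg, Ccl20 and Pdzk1, against 4607 of 32851 promoters (14%). Of the genes of the fatty acid oxidation and PPAR list with a promoter, 7 of 32 held the half-site (21.9%) and 1 of 32 CTTTGAT (3.12%). A match of letters is not a binding site, and binding was not measured here.

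Many genes with negative values were high with VPA and lay nearer to the CHIR99021 level in the combination. Cpne5, which encodes a calcium-dependent phospholipid-binding copine, had the smallest p of all genes. Its log2 ratio was 0.85 and 1.29 with the combination, 0.30 and 0.12 with CHIR99021 alone, 3.86 and 3.70 with VPA alone and 0.37 and 0.28 in control organoids (lines 1 and 2). The 2 VPA arrays stood far above the other 6, which did not overlap with them. VPA thus went with a difference of 0.86 in the presence of CHIR99021 and of 3.46 in its absence, an interaction of -2.60 ± 0.23 (limma adjusted p = 0.334). Without the combination array of line 2 the adjusted p of Cpne5 was 0.043, and it was then the one gene called. Its 2 other probes were above background on at most 1 array. Mgll, monoacylglycerol lipase, read 0.49 and -0.22 with the combination, 0.43 and 0.11 with CHIR99021 alone, 2.09 and 1.52 with VPA alone and 0.14 and 0.05 in control organoids. Its VPA difference was -0.14 with CHIR99021 and 1.71 without it, an interaction of -1.85 ± 0.22, and a further probe well above background on 8 arrays gave -1.51. Aqp3, a channel for water and glycerol, was low on the CHIR99021 arrays and stayed there when VPA was added. It read -1.74 and -0.82 with the combination, -1.69 and -1.33 with CHIR99021 alone, 1.87 and 2.31 with VPA alone and -0.07 and -0.06 in control organoids, which gives an interaction of -1.93 ± 0.28. Crip2, a LIM-domain protein gene, differed from these: it was high in the combination (3.30 and 3.20) and with VPA (3.30 and 3.35), intermediate with CHIR99021 (1.15 in both lines) and low in control organoids (0.08 and 0.13). Combination and VPA values lay close together, and the interaction was -1.12 ± 0.12 (-0.74 with outlier spots kept). The actin-capping gene Capg (-1.73), the endocytic adaptor gene Pacsin3 (-0.82) and the GTPase-activating gene Arhgap6 (-1.06) were also among the 15. Of the 48 negative genes past 2-fold in both lines, 23 were at least 2-fold higher with VPA alone than in control, 7 were at least 2-fold lower with it, and 12 were 2-fold different with neither compound. Of all 19255 genes, 750 were at least 2-fold higher with VPA in line 1 and 541 in line 2. At least 2-fold lower with VPA were 369 and 197. These are counts by line, while those among the 48 use the mean of the lines. The VPA arrays are part of the interaction, so the counts among the 48 are a description.

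**Figure D3:**
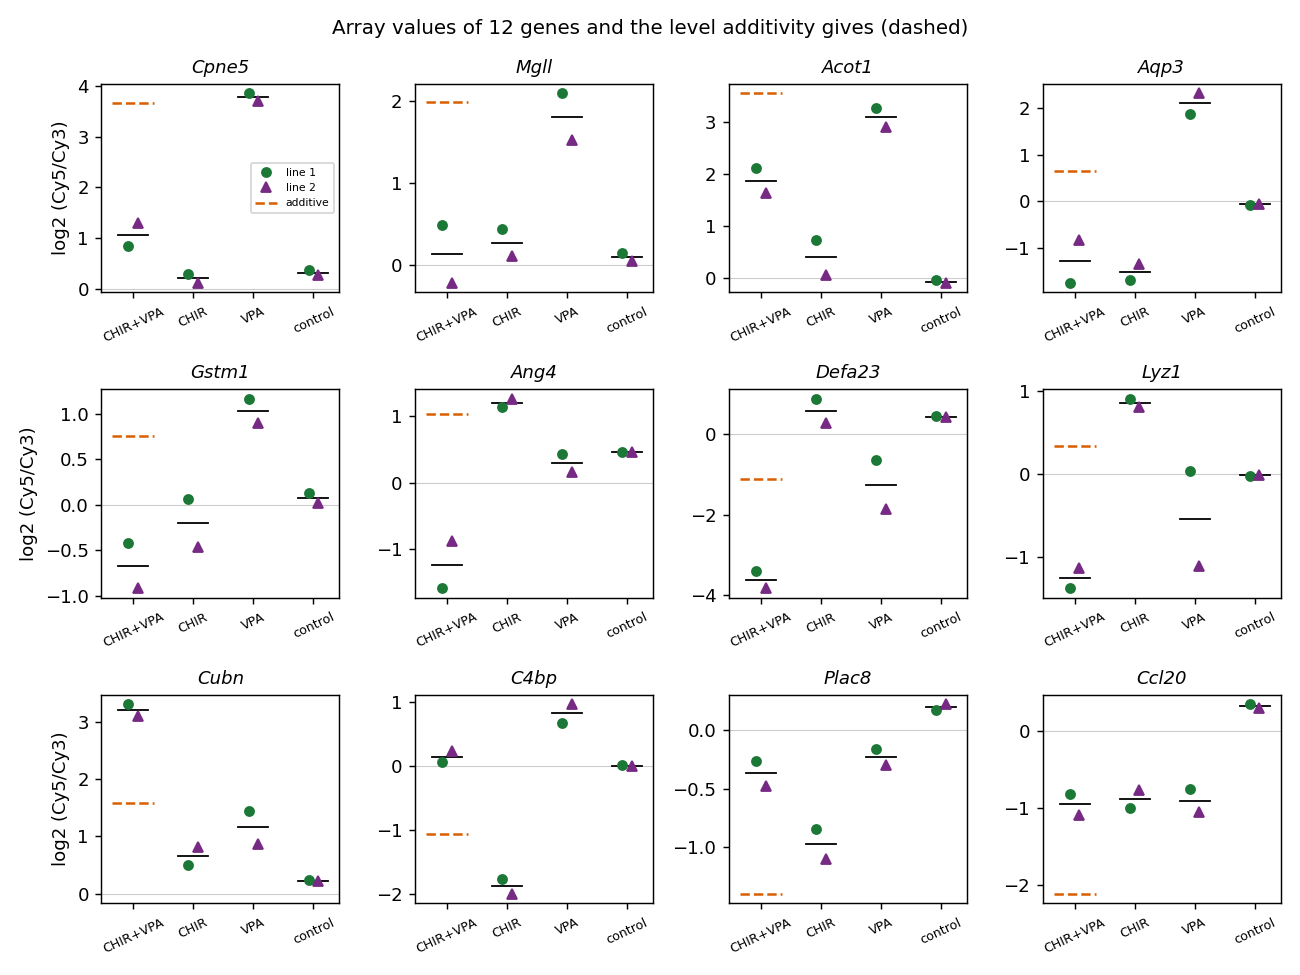
Log2 Cy5/Cy3 of 12 genes on each array by group; circles are line 1, triangles line 2, black bars the mean of the 2 lines, and the dashed line the mean the combination would have if log2 changes added. The combination lies below the dashed line for Cpne5, Mgll, Acot1, Aqp3, Gstm1, Ang4, Defa23 and Lyz1 and above it for Cubn, C4bp, Plac8 and Ccl20.

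Fatty acid oxidation and PPAR target genes lay on the negative side as a list. Of 43 members tested, 33 were negative in both lines (76.7%) and 3 positive in both (6.98%). Of all 19255 genes, 4903 were negative (25.5%) and 5362 positive (27.8%) in both. The median was -0.43 (-0.35 in line 1 and -0.40 in line 2), beside 0.00 for all genes. At an unadjusted p under 0.05, 14 members were negative and 0 positive, against 2% and 2.23% of all genes, with 0 at an adjusted p of 0.05. Without the VPA array of line 2 the median was -0.24. The median VPA difference of the members was 0.38 with CHIR99021 and 0.86 without it. Acot1, which hydrolyses acyl-CoA in the cytosol, read 2.11 and 1.64 with the combination, 0.74 and 0.05 with CHIR99021 alone, 3.27 and 2.91 with VPA alone and -0.04 and -0.09 in control organoids. Its groups did not overlap, and its VPA difference was 1.48 with CHIR99021 and 3.16 without it, an interaction of -1.68 ± 0.21. Cyp4a10, a fatty acid omega-hydroxylase and classical PPAR-alpha target, was the most negative named gene at -2.99 ± 1.12 but split between lines, with 0.45 and 3.66 in the combination, 0.34 and -0.03 with CHIR99021 alone, 4.72 and 5.57 with VPA alone and 0.31 and 0.19 in control organoids. Its interaction was -4.29 in line 1 and -1.69 in line 2, and dimmer probes of it, above background on 7 and 4 arrays, gave -1.81 and -1.48. Without the combination array of line 1 Cyp4a10 was at -1.45, and without that of line 2 -4.54. The mitochondrial and peroxisomal enzymes had smaller values, among them Acot2 (-1.02), Hadhb (-0.59), Cpt2 (-0.54), Eci2 (-0.53) and Acadvl (-0.43), and the receptor gene Ppara itself was at -0.48. Cpt1a, which admits fatty acids into mitochondria, was at 0.05 (-0.15 and 0.25). Abcd3, a peroxisomal fatty acid transporter outside the list, was at -1.14 ± 0.15, and its 2 other probes gave -0.95 and -1.11. The paired values of the list show the VPA difference with CHIR99021 to be the smaller one for most members.

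**Figure D4:**
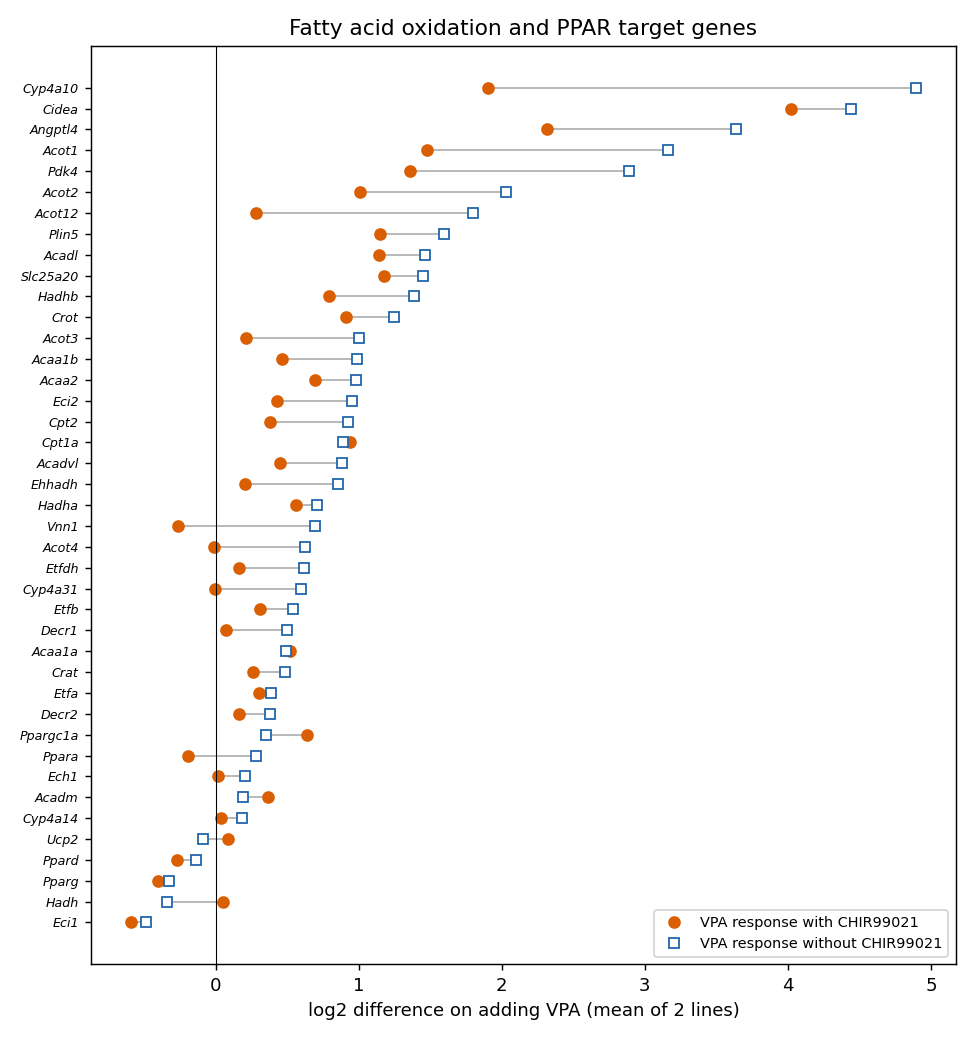
VPA difference (log2, mean of 2 lines) with CHIR99021 (filled) and without it (open) for 41 of the 43 fatty acid oxidation and PPAR target genes, ordered by the second. The filled point lies to the left of the open one, a negative interaction, for 35 of the 41 genes.

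Genes of lipid uptake and storage behaved in part like the oxidation genes. Plin2, the coat protein of lipid droplets, was at -0.93 ± 0.17 (-1.10 and -0.76), Cidec at -0.66, the fatty acid carrier gene Cd36 at -1.32 (above background on 7 arrays) and the binding protein gene Fabp2 at -1.88 ± 0.63. In the Cy3 control channel Fabp2 had values of 0.99 and 0.76, and in Cy5 alone -1.76 and -0.45. Fabp1 was at -4.05 in line 1 and -0.16 in line 2, with Cy3 values of 1.47 and -1.35. In Cy5 alone Fabp1 was at -2.58 and -1.61, so its lines lay nearer to each other there than in the ratio. The part of these Cy3 values in the results of Fabp2 and Fabp1 was not tested. Over the 27 fat absorption and apolipoprotein genes the median was -0.09, with -0.39 in line 1 and 0.05 in line 2. In both lines 11 were negative (40.7%) and 7 positive (25.9%), against 25.5% and 27.8% of all genes. The genes named in this paragraph are negative ones, and 10 of the 27 were positive in the mean of the lines.

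Paneth cell genes formed the list with the lowest median, and for several of them the combination was the lowest group. Of 20 members tested, 12 were negative (60%) and 1 positive (5%) in both lines, against 25.5% and 27.8% of all genes. The median was -0.92 (-1.45 in line 1 and -0.34 in line 2). At an unadjusted p under 0.05, 7 were negative and 1 positive, against 2% and 2.23% of all genes, with 0 at an adjusted p of 0.05. The list's median lay at -0.34 without the combination array of line 1 and at -1.31 without that of line 2. Ang4, an antimicrobial ribonuclease of Paneth granules, read -1.58 and -0.87 with the combination, 1.13 and 1.26 with CHIR99021 alone, 0.44 and 0.16 with VPA alone and 0.46 in both lines of control organoids. The combination was thus the lowest group, below both single compounds and control in each line, and the VPA difference was -2.42 with CHIR99021 and -0.16 without it, an interaction of -2.26 ± 0.30. Lyz1, which encodes lysozyme, was also lowest in the combination in each line, with -1.38 and -1.13 in the combination, 0.91 and 0.81 with CHIR99021 alone, 0.03 and -1.11 with VPA alone and -0.02 and -0.01 in control organoids. Its interaction was -1.59 ± 0.43, -2.34 and -0.84 by line, and in line 2 VPA alone already stood at -1.11. Without the VPA array of line 1 the interaction of Lyz1 was -0.99. Defa23, one of the alpha-defensins, read -3.40 and -3.82 with the combination, 0.89 and 0.28 with CHIR99021 alone, -0.64 and -1.84 with VPA alone and 0.46 and 0.43 in control organoids. Its VPA difference was -4.20 with CHIR99021 and -1.69 without it, an interaction of -2.51 ± 0.35. Defa20 (-2.07), Defa3 (-2.06) and Defa22 (-1.26), the protease gene Mmp7 that activates alpha-defensins in mice (-1.47) and the Paneth-derived ligand gene Wnt3 (-0.89) lay on the same side. Ang2, an angiogenin paralogue, was at -2.06. Alpha-defensin and angiogenin genes are families of close copies whose probes may cross-hybridise, so the values of single members are uncertain. The members counted may for the same reason not be independent.

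Outside Paneth cells the secretory lineages were mixed. The goblet list had a median of -0.02 over 32 genes. In both lines 10 were negative (31.2%) and 13 positive (40.6%), against 25.5% and 27.8% of all genes. The trefoil factor gene Tff3 was at -1.06 ± 0.21 (-1.08 and -1.03), and the goblet regulator gene Spdef at -0.67 (-0.86 and -0.48), while Rep15 was at 0.98 (1.07 and 0.89). Without the VPA array of line 1 Spdef was at -0.37. Among enteroendocrine genes Chgb, a granule protein gene, was at -1.17 (-1.72 and -0.62) and the hormone gene Ghrl at 1.22 (1.17 and 1.26). On the linear scale the signs of Spdef and Chgb were positive, and without the combination array of line 1 Chgb was at -0.57, against -1.77 without that of line 2. The median of the 26 enteroendocrine genes tested was -0.10. For the tuft list the median was 0.44 in line 1 and 0.00 in line 2.

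Crypt stem cell and Wnt target genes, which Wnt signalling drives, showed little shared departure. Lgr5, the stem cell receptor gene, read 0.37 and 1.02 with the combination, 1.28 and 0.74 with CHIR99021 alone, 0.24 and -0.52 with VPA alone and 0.36 and -0.13 in control organoids. The interaction of Lgr5 was -0.79 in line 1 and 0.67 in line 2, with a mean of -0.06 ± 0.44. Axin2, the feedback inhibitor of the pathway, was at -0.42 ± 0.21 (-0.84 and 0.01). Its values were -0.61 and -0.70 in the Cy3 control channel, and -1.56 and -0.78 in Cy5 alone, negative in both lines. Nkd1, another feedback gene, was at -0.71 (-1.08 and -0.35), and its second probe, also well above background on 8 arrays, gave 0.05, while the first gave -0.18 with outlier spots kept. Of 29 Wnt target and feedback genes, 6 were negative (20.7%) and 5 positive (17.2%) in both lines. Of 25 stem cell genes 4 were negative (16%) and 3 positive (12%). All these shares lay below the 25.5% and 27.8% of all genes. In the mean of the lines 21 of the 29 and 19 of the 25 were negative, against 9415 of all 19255 genes. The medians in lines 1 and 2 were -0.07 and 0.02 for the Wnt list and -0.25 and 0.08 for the stem cell list. At an unadjusted p under 0.05, 3 Wnt genes and 1 stem cell gene were negative and 0 positive. The shares of all genes were 2% and 2.23%, and 0 members passed an adjusted p of 0.05. The stem cell factor gene Ascl2 was at 0.00, the secreted Wnt inhibitor gene Notum at -0.02, and the Notch pathway genes Atoh1, Dll1 and Hes1 at -0.16, 0.04 and 0.02. The proliferation gene Mki67 was at -0.21, -0.80 and 0.40 by line, and the cell cycle inhibitor gene Cdkn1a at 0.09, with -0.42 and 0.60.

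Genes of the fetal-like, YAP-responsive state of injured epithelium also lay below additivity, with a median CHIR99021 difference of 0.03 in the presence of VPA and 0.45 in its absence. The list had 16 of 29 members negative (55.2%) and 2 positive (6.9%) in both lines, against 25.5% and 27.8% of all genes. Its median was -0.24. At an unadjusted p under 0.05, 7 members were negative and 0 positive, against 2% and 2.23% of all genes, with 0 at an adjusted p of 0.05. Anxa3, an annexin gene, read -0.06 and -0.24 with the combination, 1.65 and 0.95 with CHIR99021 alone, -0.08 and 0.37 with VPA alone and 0.08 and 0.09 in control organoids. Its CHIR99021 arrays stood above the other 6, and the interaction was -1.51 ± 0.34. Clu, the marker of revival stem cells, was at -1.46 ± 0.40 (-1.21 and -1.71), with a VPA difference of -2.06 in the presence of CHIR99021 and -0.60 in its absence. Anxa1 was at -1.77 (-2.16 and -1.37), Ly6d at -0.93, and Ly6a, which encodes the surface antigen Sca-1, at -1.18 ± 0.79. The list's median was -0.01 without the control array of line 1 and -0.40 without that of line 2, -0.04 with outlier spots kept, -0.14 with no filter on dim probes, -0.16 with median centring and -0.40 with Agilent log ratios.

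Among glutathione and xenobiotic enzymes the lower values came from a few gene families, and the list as a whole lay near 0. Gstm1, a glutathione S-transferase, read -0.42 and -0.92 with the combination, 0.06 and -0.47 with CHIR99021 alone, 1.16 and 0.90 with VPA alone and 0.13 and 0.02 in control organoids, an interaction of -1.42 ± 0.17 whose second probe gave -0.74. Gstm2 (-0.94), Gstm3 (-1.28), Gstm4 (-1.08), Gsta1 (-1.57) and Gsta2 (-1.28) lay with it, and Gclc, the glutathione synthesis enzyme, at 0.26. Of 37 genes of the NRF2, glutathione and metallothionein list, 17 were negative (45.9%) and 7 positive (18.9%) in both lines, against 25.5% and 27.8% of all genes. The list's median was -0.09, with line values of -0.21 and -0.02, and was 0.05 without the control array of line 1. The P450 genes Cyp2b9 (-2.77), Cyp2b10 (-2.39) and Cyp2b13 (-2.30), picked after their values were seen, were also low in the combination. Cyp2b9 read -3.54 and -2.08 with the combination, 0.07 and -0.64 with CHIR99021 alone, 0.46 and 0.43 with VPA alone and 0.19 and 0.21 in control organoids. Members of the Gstm, Gsta and Cyp2b families are close copies, and cross-hybridisation was not tested.

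Fewer genes passed 2-fold in both lines on the positive side. Brush border genes of absorptive enterocytes had a median of 0.26 (0.22 in both lines). In both lines 19 of 41 were positive (46.3%) and 6 negative (14.6%), against 27.8% and 25.5% of all genes. At an unadjusted p under 0.05 there were 6 positive and 0 negative, against 2.23% and 2% of all genes, with 0 at an adjusted p of 0.05. The list's median was 0.07 in the Cy5 channel alone, 0.14 with outlier spots kept, 0.15 without the combination array of line 2 and 0.16 without the control array of line 1. Cubn, cubilin, the endocytic receptor for intrinsic factor with vitamin B12, was the gene furthest above additivity among the 15. It read 3.30 and 3.10 with the combination, 0.49 and 0.82 with CHIR99021 alone, 1.44 and 0.87 with VPA alone and 0.24 and 0.22 in control organoids. The combination arrays stood above the other 6, and the interaction was 1.62 ± 0.28 (1.60 and 1.63). The meprin genes Mep1a (0.54) and Mep1b (0.58), the microvillar cadherins Cdhr5 (0.52) and Cdhr2 (0.33) and the microvillar motor Myo1a (0.53) had smaller values. These are positive members, and 14 of the 41 tested were negative in the mean of the lines. For Myo1a the CHIR99021 difference was -0.72 with VPA and -1.25 without it. Pdzk1, a brush border scaffold, was at 0.70 and Slc5a4a, a glucose-sensing member of the sodium-glucose transporter family, at 0.78. With outlier spots kept they were at 0.14 and 0.36, and Slc5a4a was at 1.72 with Agilent log ratios.

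Several positive genes were low with a single compound and no lower, or higher, in the combination. Ccl20, a chemokine that draws CCR6-bearing lymphocytes, read -0.82 and -1.09 with the combination, -0.996 and -0.762 with CHIR99021 alone, -0.76 and -1.06 with VPA alone and 0.36 and 0.31 in control organoids. The 3 treated groups overlapped and all lay below control, which gives an interaction of 1.17 ± 0.20 (0.73 with outlier spots kept). C4bp, the complement C4-binding protein gene, read 0.05 and 0.24 with the combination, -1.76 and -1.99 with CHIR99021 alone, 0.67 and 0.96 with VPA alone and 0.01 and 0.00 in control organoids. The VPA difference of C4bp was 2.02 with CHIR99021 and 0.81 without it, an interaction of 1.21 ± 0.19, which on the linear scale of fold was 0.07. Plac8, a small cysteine-rich protein gene, read -0.26 and -0.48 with the combination, -0.85 and -1.10 with CHIR99021 alone, -0.16 and -0.29 with VPA alone and 0.17 and 0.22 in control organoids, an interaction of 1.03 ± 0.14. The antimicrobial lectin genes Reg3b and Reg3g were far more variable. Reg3b read 1.90 and -4.32 with the combination, -5.49 and -5.51 with CHIR99021 alone, 2.22 and -1.26 with VPA alone and 0.06 and -0.06 in control organoids, so its interaction of 3.81 ± 2.03 rests on lines that differed by several log2 units. Reg3g was at 1.65 ± 0.53 (2.51 and 0.80) on the log scale and negative on the linear scale. Without the combination array of line 1 Reg3b was at 1.31 and Reg3g at 0.91, and without that of line 2 Reg3b was at 6.32. Interferon and antigen presentation genes, among them the regulator Irf7 (0.67) and the peptide transporter Tap2 (0.40), had a median of 0.14. Of 35 tested, 20 were positive (57.1%) and 6 negative (17.1%) in both lines, against 27.8% and 25.5% of all genes. The interferon median was 0.01 with outlier spots kept, 0.02 without the combination array of line 1 and 0.06 without the control array of line 2. Ifi27l2a, an interferon-induced gene, was at 0.93 (1.15 and 0.71), with 0.21 on its second probe. In the Cy3 control channel it had -0.72 and -0.09, and in Cy5 alone 0.38 and 0.61. Its lowest value under the other processing settings with all arrays was 0.50. The nucleoside transporter gene Slc28a3 (0.72), the protease gene Prss30 (0.95), the Golgi kinase gene Fam20c (0.81), the exocytosis GTPase gene Rab3b (0.82), the ubiquitin ligase gene Neurl1b (1.06), the sterol-binding Osbpl6 (0.61), Sval1 (0.83) and Ifi27l2b (0.75) complete the 15 positive genes. With outlier spots kept, Slc28a3 was at 0.09, Prss30 at 0.47, Rab3b at 0.54, Osbpl6 at 0.34 and Sval1 at 0.55, and with Agilent log ratios Prss30 was at 1.55, Rab3b at 1.64, Osbpl6 at 0.96 and Plac8 at 0.68. The other probe of Slc28a3, above background on 1 array, gave 0.08.

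**Figure D5:**
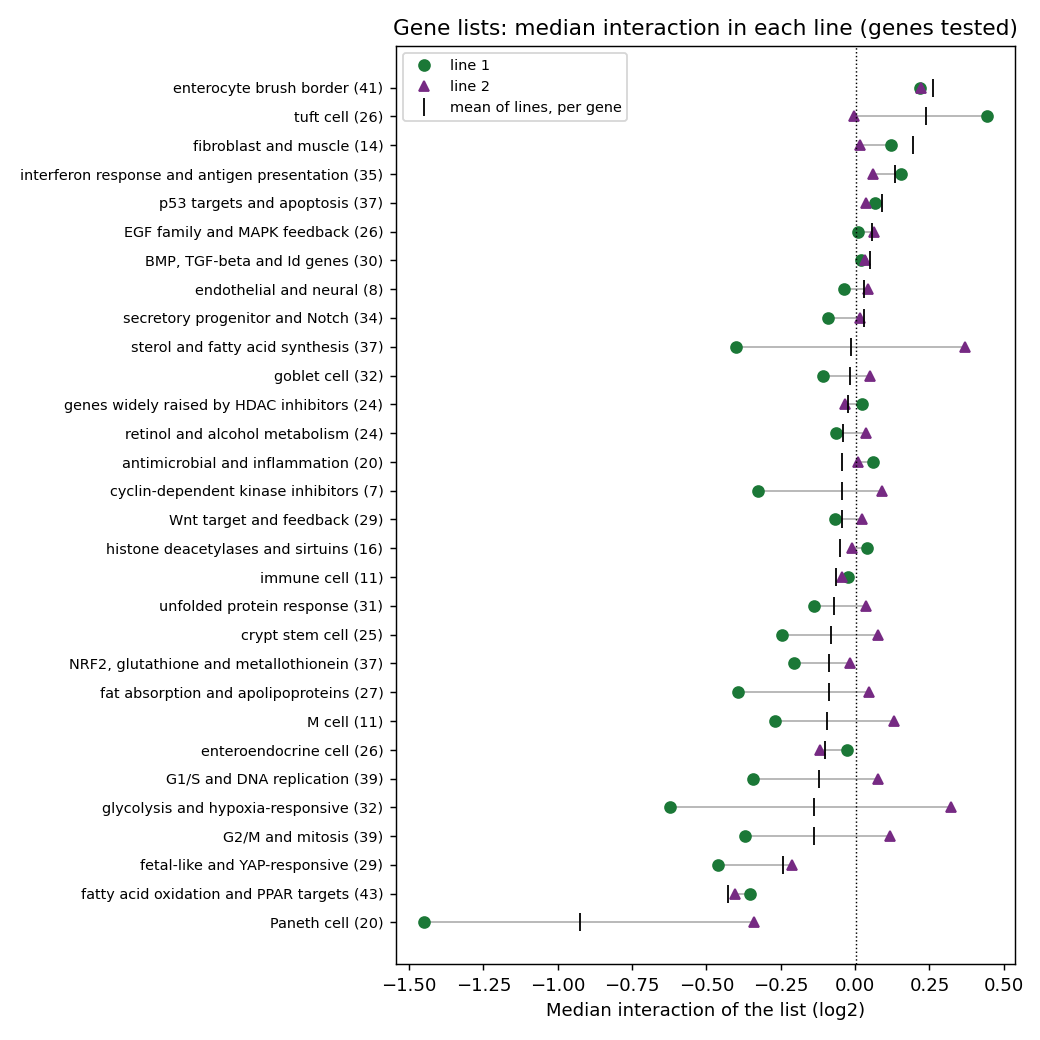
Median interaction (log2) of 30 gene lists in line 1 (circles) and line 2 (triangles), with the median of the 2-line mean per gene (bars) and the number of genes tested in parentheses. Both lines lie left of 0 for the Paneth, fatty acid oxidation and fetal-like lists and right of 0 for the brush border list at 0.22.

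To read VPA-responsive genes without using the arrays that chose them, genes were classed in one line and their interaction was read in the other, which shares no array with it. The 750 genes at least 2-fold higher with VPA in line 1 had a median interaction of -0.09 in line 2, where 60.1% were negative, against a median of 0.01 and 47.2% for all genes. Their median VPA difference in line 2 was 0.83 with CHIR99021 and 0.94 without it. The 541 genes chosen in line 2 had a median of -0.15 in line 1, where 63.4% were negative, against 0.00 and 50.5% for all genes, with VPA differences of 0.99 with CHIR99021 and 1.17 without it. The median of the VPA-higher genes was negative in both readings. For genes at least 2-fold higher with CHIR99021 the readings opposed each other, with 0.14 for 107 genes read in line 2 and -0.62 for 27 genes read in line 1. Genes at least 2-fold lower with CHIR99021 had medians of 0.08 (297 genes) and 0.06 (331 genes), and genes lower with VPA had 0.01 (369 genes) and -0.14 (197 genes).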

How the data were processed

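Total RNA of 2 organoid lines was measured on Agilent whole mouse genome microarrays with Cy5 for the sample and Cy3 for control RNA, with no dye swap, per the labels' protocols. Per the file headers, Feature Extraction 10.5.1.1 gave the deposited intensity values, which are median pixel brightness of spot and local background on a linear scale. Per the file headers, the deposited log10 ratio of each spot is background-subtracted and dye-normalised. The authors' deposited log2 series table equalled that ratio within 5e-10 over 19228 spots, Cy5 over Cy3, with column medians of -0.0080, -0.028, 0.017 and 0.0039 in line 1 and -0.0027, -0.024, 0.036 and 0.0057 in line 2 for the combination, VPA, CHIR99021 and control. Other deposited columns of 0 or 1 are the software's marks for background, saturation and outliers. Later steps of the authors are not given in the sources used here.

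Of 45018 spots per array 1639 were controls, which got weight 0. Between 60.6% and 64.6% of spots were well above background and 0 were saturated. The number of arrays limits the precision. Background was corrected with limma 3.58.1 (normexp, offset 50) and ratios were normalised by loess in R 4.3.3. Spots marked as outliers, or with a non-uniform background, were left out of the background model and the values (104 to 209 per array). Background population marks, which would remove 896 to 1828 spots in all, were applied only as an alternative. Symbols came from a RefSeq table (GRCm38.p6) for 27479 of 41174 probes, and the brightest probe stood for a gene. Genes had to exceed background clearly, by the Cy5 mark, on 2 arrays of one group; 79 were dropped for marks, which left 19255, of which 13972 had a symbol. The model held organoid line (replicate number and slide), CHIR99021, VPA and their interaction, with 3 residual and 3.48 prior degrees of freedom. The labels say that the numbers are lines, and same-numbered samples deviated together (r 0.122 to 0.755 over 6 pairs of groups), so the line is the block. Each treatment sat at one position of both slides, so position and treatment cannot be told apart. Lists got no test. The 28 fixed markers and 30 lists were chosen with earlier results of these data known. With 0 genes called, the rule for named genes took the 15 smallest p in each direction. The fit was tested on simulated data. Alternatives covered the block, background, normalisation, channel, filter, probes, variance model, marks and each array left out. The values of some genes are not reported here.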

Additional observations from a re-analysis of the deposited data

How the results depend on the processing

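The count of genes called stayed at 0 in the fit with no replicate block, which also gave 0 higher and 0 lower genes, and under the other alternatives, where leaving out 1 array in turn gave 0 to 1 genes called, 0 to 0 higher and 0 to 1 lower. The 1 gene was Cpne5, without the combination array of line 2. Unadjusted counts ran from 435 to 1303 genes, with 511 for no replicate block. The 30 genes of smallest p kept their sign in every setting, or 25 of 25 where background population marks were applied as well, a setting added after seeing the data. They had been chosen on the same arrays for a small p and one sign in both lines, so the kept signs are no separate support. Of 1129 recomputed gene values 203 moved by more than the spread between lines, as did 125 of 600 list medians. The lists' median sign held in 20 of 20 alternatives for fatty acid oxidation (-0.56 to -0.24), Paneth cell (-1.31 to -0.34), fetal-like (-0.40 to -0.01), brush border (0.07 to 0.33) and interferon genes (0.01 to 0.20). It held in 20 of 20 as well for fibroblast and muscle genes (0.07 to 0.27) and for p53 target and apoptosis genes (0.01 to 0.17). The cause of these shifts was not tested.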

Other observations

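Several lists departed from additivity in opposite directions in the 2 lines. The median of the glycolysis and hypoxia-responsive genes was -0.62 in line 1 and 0.32 in line 2, that of sterol and fatty acid synthesis genes -0.40 and 0.37, and those of G1/S and G2/M genes -0.34 and 0.08, and -0.37 and 0.12. Over the mean of the lines the sterol list had a median of -0.02, whose sign held in 14 of 20 alternatives. Lists of other tissues had medians of 0.19 (0.12 and 0.02) for fibroblast and muscle, -0.07 (-0.02 and -0.04) for immune and 0.03 (-0.04 and 0.04) for endothelial and neural genes.

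Further genes among the 58 past 2-fold in both lines were picked after their values were seen. Dmbt1, a mucosal scavenger receptor gene, read -5.66 and -3.52 with the combination, -2.71 and -1.997 with CHIR99021 alone, -0.48 and 0.52 with VPA alone and -0.09 and -0.11 in control organoids, an interaction of -2.36 ± 0.62. Me1, the cytosolic malic enzyme gene, was at -1.61 (-2.13 and -1.10) and Spink4, a secreted peptidase inhibitor gene, at -1.70 (-2.17 and -1.23). Vim, the vimentin gene, read 1.49 and 4.25 with the combination, -0.75 and -0.46 with CHIR99021 alone, -0.11 and 2.77 with VPA alone and 0.04 and 0.00 in control organoids, an interaction of 2.16 ± 1.07. Reg1 was at 2.91 ± 1.35, with -6.47 and -2.33 in the combination and -5.35 and -5.20 with CHIR99021.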
